A study of Mus musculus with 4 samples.

Results

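The genes described here are 34 genes of meiosis, read in single mouse germ cells that were sorted as spermatogonia. They were taken as a list of names and not by a rule on their values, although earlier results of these data were known. All 34 have a row among the 26041 gene symbols of the count tables. Meioc is listed under its older symbol Gm1564. The row Spag6 may hold Spag6 or its near copy Spag6l, because RefSeq gives Spag6 as an older name of Spag6l and the tables have no row of that name.

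The cells came from testes of 4 wk old mice on the B6N.Cg background. Every group carries the knock-in allele icre/ERT2 at Eomes, whose locus also drives tdTomato. Single cells were sorted by that fluorescence into 4 plates, and transcripts were counted from their 3′ end by unique molecular identifiers (UMIs), 1 count per molecule caught. Plzf +/+ is the control genotype, and Plzf lu/lu mice carry luxoid, a mutation of Plzf, the transcription factor whose row is named Zbtb16. The libraries were Plzf +/+ replicate 1, 2 and 3 (317, 303 and 277 cells of plates 1, 2 and 4) and Plzf lu/lu replicate 1 and 2 (314 and 38 cells of plates 3 and 4). The labels name no animals, so p-values below measure the spread between these libraries, and plates 1 to 3 hold 1 genotype each. A sort on a reporter at Eomes samples the cells that carry the reporter protein and not all spermatogonia.

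Meiosis is the pair of divisions that turns a spermatocyte into haploid spermatids. Its prophase assembles a protein axis of cohesins and HORMA domain proteins along each chromosome, joins the homologous chromosomes by the synaptonemal complex, and breaks and repairs DNA so that crossovers form. Spermatogonia divide by mitosis, enter meiosis after exposure to retinoic acid, which induces Stra8, and transcribe a further set of genes at pachytene, among them Ldhc, the lactate dehydrogenase subunit of spermatocytes and sperm. Ldhc therefore served here to class the cells.

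Cells with 0 Ldhc UMIs are called Ldhc-0, and cells with at least 5 are called Ldhc-rich. There were 770 Ldhc-0 cells, 320 cells with 1 to 4 Ldhc UMIs and 159 Ldhc-rich cells. The limit fell in a thin range of values, with 17 cells at 4 UMIs and 11 cells at 5 UMIs. Median depth was 5454 UMIs per Ldhc-0 cell and 10170 UMIs per Ldhc-rich cell, so a share of cells with a UMI is given both as counted and after each cell of at least 2000 UMIs was thinned to 2000 UMIs, which left out 60 Ldhc-0 cells and 2 Ldhc-rich cells. The Ldhc-rich cells numbered 17, 57 and 40 in the Plzf +/+ replicates and 41 and 4 in the Plzf lu/lu replicates. Levels are in CPM, the UMIs of a gene per 1000000 UMIs over the pooled cells of a class. Since each molecule is counted at its 3′ end, they are not divided by gene length, and genes are compared with themselves across classes and libraries rather than with each other. Intervals are exact 95% intervals and cover counting error only.

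The Ldhc-0 cells had the markers of spermatogonia. Dazl, an RNA-binding protein of germ cells, had a UMI in 94.8% of them, and Gfra1, the receptor for GDNF on the least differentiated spermatogonia, in 56.2%. Over all cells of a library, Zbtb16 stood at 77.0, 53.1 and 70.3 CPM in Plzf +/+ and at 17.6 and 11.8 in Plzf lu/lu. The Ldhc-rich cells were not a single kind of cell. Of the 159, 94 held at least 5 UMIs of the 4 spermatid genes Prm1, Prm2, Tnp1 and Tnp2, 71 held at least 4 of 12 Sertoli cell markers, and 91 (57.2%) still had a Gfra1 UMI. The 14 markers of undifferentiated spermatogonia, all of them detected in both classes, summed to 1071.3 CPM in Ldhc-0 cells (722.2 to 1254.0 over the libraries) and 564.4 in Ldhc-rich cells (386.0 to 708.0), and the 12 spermatid markers to 187.3 (131.8 to 287.4) and 13947.1 (8220.6 to 23391.8). The 12 Sertoli markers summed to 540.6 (376.1 to 726.0) and 1290.7 (559.6 to 2934.6). Most of the first sum was Ctsl, at 408.5 CPM in Ldhc-0 cells, with a UMI in 78.3% of them, and 374.2 in Ldhc-rich cells. Trf also fell, from 27.8 to 11.7, and each of the other Sertoli markers rose. All 12 of both lists were detected in both classes. The 4 late germ cell markers other than Ldhc summed to 52.5 and 1718.0. Lists of Leydig, peritubular myoid, macrophage, endothelial, T and NK, and erythroid markers each summed to at most 62.2 in any class. Of 376 well barcodes, 358 occur in more than 1 library.

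**Figure D1:**
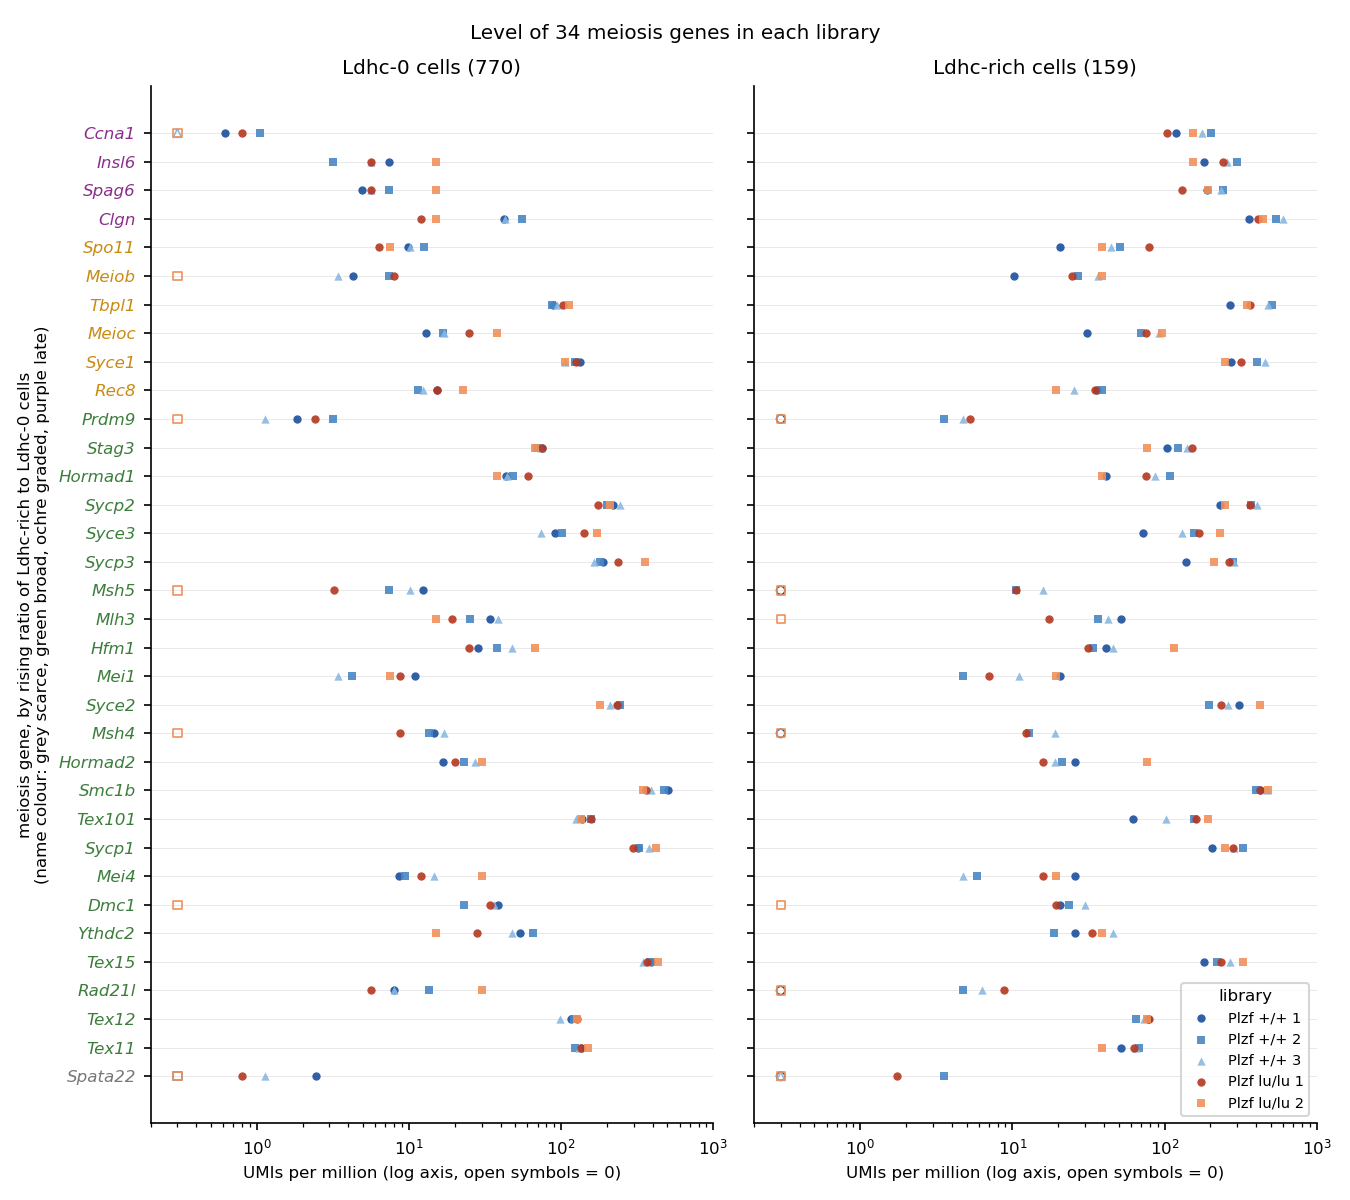
Level of each meiosis gene in Ldhc-0 cells (left) and Ldhc-rich cells (right), in CPM on a log axis, with 1 symbol per library and open symbols at the left edge for a level of 0. Green names have pooled ratios from 0.482 to 1.90, against a median of 0.737 over all genes with at least 20 UMIs. Among them Tex11, Tex12 and Tex15 lie farther left and Stag3 farther right in Ldhc-rich cells without overlap, which was not counted over all genes. The purple names Clgn, Spag6, Insl6 and Ccna1 move to the right by over 10-fold.

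Transcripts of the meiosis genes were found in cells without Ldhc, at shares that differed from gene to gene. Of the 34, 11 had a UMI in over 40% of Ldhc-0 cells and 14 in under 10%. All 34 had at least 1 UMI in the pooled Ldhc-0 cells, 32 had at least 10, and 32 were found in each of the 4 libraries with more than 100 Ldhc-0 cells. Each of the 34 also had a UMI in the 331 Ldhc-0 cells that carried Gfra1 and neither Kit nor Stra8. Among the 2155250 UMIs of those 331 cells, however, Prdm9 had 1, Spata22 had 2 and Ccna1 had 3. The 4 spermatid genes named above also had a UMI in some Ldhc-0 cells, from 6.23% of them (Tnp2) to 20.9% (Prm2). Whether such low counts of a member come from transcription in the Gfra1 cells was not tested. By the ratio of the pooled levels in Ldhc-rich and Ldhc-0 cells, 23 genes had a ratio under 2, with no lower limit, and are called broad (ratio 0.482 to 1.90, median 1.01), 6 rose 2- to 10-fold and are called graded (Rec8, Syce1, Meioc, Tbpl1, Meiob and Spo11), and 4 rose over 10-fold and are called late (Clgn, Spag6, Insl6 and Ccna1). Spata22 had 17 UMIs in all and was left ungrouped. The groups restate the levels and carry no test. Of the 15738 genes with at least 20 UMIs, 78.2% were broad by the same limits, 10.3% graded and 11.1% late, and the median ratio was 0.737.

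Promoters of members of the broad and late groups are shown because repression in somatic cells and early germ cells has been tied to short motifs in the promoters of some meiosis genes, TCCCGC (the E2F6 motif) and CACGTG (the E-box), and induction in late germ cells to TGACGTCA (the CRE). RefSeq promoters on GRCm38.p6 were matched for 27 of the 34 genes, by the first listed start of each. The 250 bases before the start are given 5′ to 3′ on the strand of the gene, in lower case, with capitals for TCCCGC, its reverse complement GCGGGA, or CACGTG, none of which overlapped another here. Of the windows shown, 4 were picked because they hold a motif. The windows are Sycp1 (chr3:102936101-102936350, minus strand), Sycp2 (chr2:178407659-178407908, minus strand), Sycp3 (chr10:88459337-88459586, plus strand), Smc1b (chr15:85131958-85132207, minus strand), Hormad1 (chr3:95559427-95559676, plus strand) and Ccna1 (chr3:55055056-55055305, minus strand).
Sycp1: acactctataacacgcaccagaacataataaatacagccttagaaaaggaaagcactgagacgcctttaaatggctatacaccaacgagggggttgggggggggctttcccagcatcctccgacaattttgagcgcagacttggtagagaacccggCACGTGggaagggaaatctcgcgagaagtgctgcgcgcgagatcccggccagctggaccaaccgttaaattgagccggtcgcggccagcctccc
Sycp2: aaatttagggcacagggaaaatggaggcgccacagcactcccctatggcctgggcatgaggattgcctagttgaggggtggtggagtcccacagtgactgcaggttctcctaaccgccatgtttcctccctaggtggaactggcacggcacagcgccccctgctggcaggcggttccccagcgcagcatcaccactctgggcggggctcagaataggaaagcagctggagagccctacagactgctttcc
Sycp3: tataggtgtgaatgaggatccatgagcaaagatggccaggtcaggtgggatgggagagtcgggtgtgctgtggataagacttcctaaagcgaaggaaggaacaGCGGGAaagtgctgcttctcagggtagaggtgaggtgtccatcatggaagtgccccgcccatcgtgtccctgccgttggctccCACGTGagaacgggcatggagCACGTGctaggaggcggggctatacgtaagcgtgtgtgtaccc
Smc1b: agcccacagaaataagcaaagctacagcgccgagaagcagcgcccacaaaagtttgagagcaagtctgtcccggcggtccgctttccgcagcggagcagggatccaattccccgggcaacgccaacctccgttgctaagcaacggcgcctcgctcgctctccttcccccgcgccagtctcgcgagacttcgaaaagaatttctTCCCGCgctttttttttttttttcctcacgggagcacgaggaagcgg
Hormad1: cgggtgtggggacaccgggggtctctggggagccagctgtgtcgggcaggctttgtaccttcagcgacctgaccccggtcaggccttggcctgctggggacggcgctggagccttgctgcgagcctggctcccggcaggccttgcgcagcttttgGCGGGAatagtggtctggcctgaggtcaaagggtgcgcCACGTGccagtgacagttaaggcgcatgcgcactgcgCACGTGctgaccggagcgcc
Ccna1: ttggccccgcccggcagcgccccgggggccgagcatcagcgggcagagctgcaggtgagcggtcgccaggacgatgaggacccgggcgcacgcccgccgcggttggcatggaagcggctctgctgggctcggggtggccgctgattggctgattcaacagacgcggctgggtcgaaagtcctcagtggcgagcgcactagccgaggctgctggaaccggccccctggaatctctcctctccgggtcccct
TCCCGC on either strand was in 11 of the 27 windows (Dmc1, Hormad1, Meioc, Msh5, Prdm9, Rec8, Smc1b, Spata22, Syce2, Sycp3 and Tex12) and in 16.9% of 27025 promoters of the same length. CACGTG was in 5 of the 27 (Hormad1, Stag3, Sycp1, Sycp3 and Tex12) and in 6.05% of all. TGACGTCA was in 0 of the 27 and in 1.62% of all. By group, TCCCGC or CACGTG was in 10 of 20 broad windows, 2 of 4 graded windows and 0 of 2 late windows (Ccna1 and Spag6). A match is a run of letters and not a measured binding site.

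The synaptonemal complex genes each had a UMI in over 40% of Ldhc-0 cells. Of them, only Sycp1, Sycp2 and Sycp3 had Ldhc-0 levels whose intervals lay above those of the 18 background cells described below. Sycp1, which encodes the transverse filament, had a UMI in 76.0% of Ldhc-0 cells (72.8 to 79.0) and 79.2% of Ldhc-rich cells, and in 44.5% and 44.6% after thinning. Its level in Ldhc-0 cells was 318.2, 322.9 and 377.9 CPM in Plzf +/+ and 298.7 and 421.3 in Plzf lu/lu, against 206.7, 325.7, 286.8, 280.1 and 250.9 in Ldhc-rich cells in the same order. The classes overlapped, and Ldhc-rich cells were the lower ones in 4 of 5 libraries.

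Sycp2 and Sycp3 encode the lateral elements, the protein cores along each chromosome. Sycp2 had a UMI in 59.6% of Ldhc-0 cells and stood at 208.5 CPM in them and 362.9 in Ldhc-rich cells. Sycp3 had a UMI in 58.3% of Ldhc-0 cells, at 199.4 and 266.3 CPM. Sycp2 was higher in the Ldhc-rich cells of 5 of 5 libraries and Sycp3 in 3 of 5.

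The central element genes Syce1, Syce2, Syce3 and Tex12 did not move together. Syce1 went from 123.4 to 385.5 CPM, a ratio of 3.12, with 105.3 to 133.6 over the libraries in Ldhc-0 cells and 250.9 to 461.1 in Ldhc-rich cells, so that the classes did not overlap. Syce2 went from 230.1 to 239.8 and Syce3 from 104.7 to 146.2. Tex12 went from 116.6 to 71.8, lower in the Ldhc-rich cells of 5 of 5 libraries.

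Of the meiotic cohesin subunits, Smc1b, the meiotic SMC subunit, was in 76.5% of Ldhc-0 cells (73.3 to 79.4) and 87.4% of Ldhc-rich cells, or in 50.4% and 47.1% after thinning. Its level was 505.8, 473.9, 388.1, 360.2 and 346.0 CPM in the Ldhc-0 cells of the 5 libraries (Plzf +/+ first) and 423.7, 399.7, 469.1, 425.5 and 482.5 in the Ldhc-rich cells. These ranges overlap, with 3 of 5 libraries higher in the Ldhc-rich cells.

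Stag3, the meiotic SA subunit, rose from 73.5 to 132.3 CPM and was higher in 5 of 5 libraries. Rec8, the kleisin subunit, was in 7.79% of Ldhc-0 cells at 14.2 CPM and in 23.9% of Ldhc-rich cells at 33.5. Rad21l, the other meiotic kleisin, had 84 UMIs in all and stood at 9.06 and 5.66, with overlapping intervals (6.59 to 12.2 and 3.01 to 9.67).

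Hormad1 and Hormad2 encode axis proteins that leave the chromosomes as they synapse. Hormad1 had 48.8 CPM in Ldhc-0 cells and 87.0 in Ldhc-rich cells. Hormad2 had 21 and 20.9.

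The genes of break formation each had a UMI in few Ldhc-0 cells. Spo11, the enzyme that cuts the DNA, had 46 UMIs in Ldhc-0 cells (9.48 CPM) and was found in 5.19% of them. In Ldhc-rich cells it stood at 53.1 CPM, and by library at 20.7, 50.6 and 44.4 in Plzf +/+ and 78.8 and 38.6 in Plzf lu/lu, all above the highest Ldhc-0 library (12.6). Mei1 and Mei4, which SPO11 needs for cutting, stood at 7.62 and 11.3 CPM in Ldhc-0 cells and 8.70 and 10.0 in Ldhc-rich cells. Prdm9, the histone methyltransferase that places the breaks, had 33 UMIs in all, 10 of them in Ldhc-0 cells.

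Of the strand exchange and repair genes, Tex15, which is needed for the recombinases to load on breaks, had a UMI in 72.9% of Ldhc-0 cells. Its level was 387.4, 384.8 and 347.3 CPM in the Ldhc-0 cells of the Plzf +/+ libraries and 366.6 and 436.3 in those of Plzf lu/lu. In Ldhc-rich cells it was 180.9, 221.0, 271.0, 236.4 and 328.1, lower in 5 of 5 libraries and without overlap.

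Dmc1, the meiotic recombinase, stood at 33.0 CPM in Ldhc-0 cells and 23.5 in Ldhc-rich cells. Meiob, which binds single-stranded DNA together with SPATA22, rose from 5.56 to 27.8 on 27 and 64 UMIs. Spata22 had 6 UMIs in Ldhc-0 cells, from 5 of 770 cells, and 4 in Ldhc-rich cells.

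Among the crossover genes, Tex11, an X-linked gene of synapsis and crossover formation, had the lowest ratio of all 33 grouped genes. It fell from 132.7 CPM in Ldhc-0 cells to 64.0 in Ldhc-rich cells, and each Ldhc-rich value (38.6 to 68.2 over the libraries) lay below each Ldhc-0 value (123.7 to 150.5). Hfm1, a helicase of crossover formation, stood at 33.8 and 39.2, Mlh3, an endonuclease of crossover resolution, at 28.8 and 33.9, and the MutS partners Msh4 and Msh5 at 13.0 and 13.1 and at 8.24 and 10.9.

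Meioc and Ythdc2 encode partner RNA-binding proteins that germ cells need to leave the mitotic programme. Meioc rose from 18.1 CPM in Ldhc-0 cells to 74.8 in Ldhc-rich cells, higher in 5 of 5 libraries. Ythdc2 was in 22.1% of Ldhc-0 cells at 47.0 CPM and stood at 30.9 in Ldhc-rich cells.

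The later genes of the list separated most. Ccna1, the cyclin A1 that spermatocytes need to reach the first division, had 3 UMIs among 4853882 in Ldhc-0 cells (0.618 CPM, 0.127 to 1.81) and 373 UMIs in Ldhc-rich cells (162.3 CPM, 146.3 to 179.6). By library it was at 118.9, 201.0 and 177.5 CPM in the Ldhc-rich cells of Plzf +/+ and 103.3 and 154.4 in those of Plzf lu/lu, and at no more than 1 UMI in any Ldhc-0 library. It was the nearest of the 34 to a gene read in Ldhc-rich cells alone.

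Insl6, an insulin-like peptide of the testis, and Spag6, an axoneme protein of sperm tails, each had 29 UMIs in Ldhc-0 cells (5.97 CPM) and stood at 260.2 and 207.1 in Ldhc-rich cells. Clgn, an endoplasmic reticulum chaperone of germ cells, was in 18.1% of Ldhc-0 cells at 36.5 CPM and in 72.3% of Ldhc-rich cells at 507.4. Tbpl1, a relative of the TATA-binding protein that haploid germ cells need, had a UMI in 39.2% of Ldhc-0 cells and went from 93.5 to 440.8. Tex101, a germ cell surface protein, stood at 144.6 and 135.3, and among Ldhc-rich cells at 149.9 in those with spermatid transcripts and 97.9 in those without. Without cells carrying Sertoli markers it was called lower in Ldhc-rich cells (-0.54; edgeR adjusted p = 0.0202).

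Cells that carry Sertoli markers and lack Dazl and Ddx4 give a limited background for these levels. Only 18 cells had at least 4 Sertoli markers and no Dazl or Ddx4 UMI, with a median of 2632 UMIs, and this class was chosen after the data were seen. Ldhc played no part in the choice, and 17 of the 18 held it, at 154 UMIs in all. The 18 are therefore not a background free of Ldhc. They are also counted in the Ldhc classes, which are not independent of them. Sycp1 had 1 UMI in them (14.7 CPM, 0.372 to 81.9) and Tex15 and Tex11 had 0 UMIs in 68065. The intervals of Sycp1 and Tex15 in Ldhc-0 cells (311.9 to 344.3 and 358.5 to 393.2) lie above those in the 18 cells, whose upper bound for Tex15 was 54.2. Syce1, Syce2 and Syce3 each had 10 UMIs in the 18 cells (146.9 CPM, 70.5 to 270.2), an interval that includes the Ldhc-0 level of each. In all, the Ldhc-0 interval lay above that of the 18 cells for 7 members (Sycp1, Sycp2, Sycp3, Smc1b, Tex11, Tex15 and Tex101), and the Ldhc-rich interval for 13. For the other 27 a level above this background was not detectable in Ldhc-0 cells at the depth of the 18 cells. By cells, 5.56% of the 18 had a Sycp1 UMI and 33.3% a Smc1b UMI, or 7.14% and 21.4% of the 14 that could be thinned to 2000 UMIs.

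The same 18 cells did hold Ldhc and 3 of the 4 late genes, with 0 UMIs of Spag6. Ldhc was in 17 of the 18, and per 100 Ldhc UMIs they had 9.74 UMIs of Tbpl1, 7.14 of Clgn, 5.19 of Insl6 and 3.25 of Ccna1. The Ldhc-rich cells had 9.72, 11.2, 5.74 and 3.58. The numbers were 0 in the 18 cells and 4.57 in Ldhc-rich cells for Spag6, 0 and 1.65 for Meioc, 0.649 and 6.44 for Sycp1, and 5.19 and 9.46 for Smc1b. What part such RNA has in the levels of Ldhc-rich cells was not tested.

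**Figure D2:**
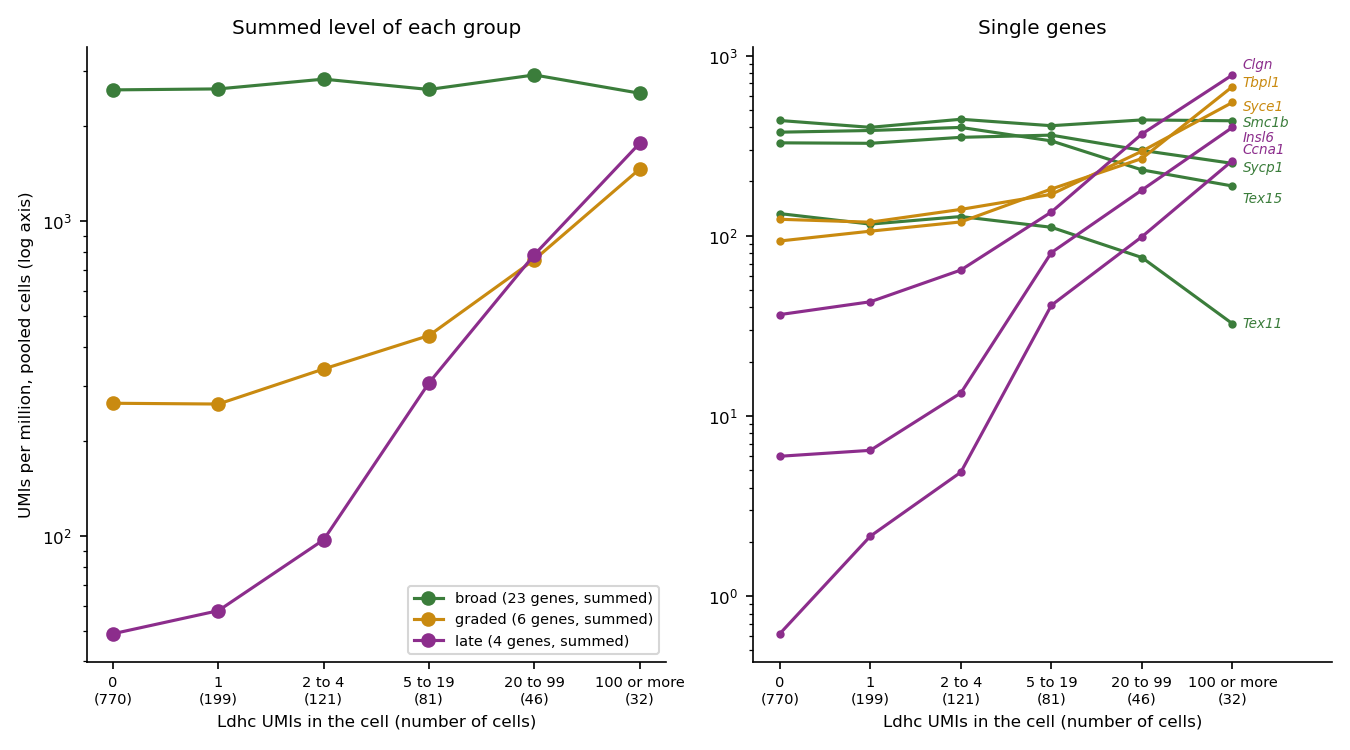
Level in CPM (log axis) of the pooled cells of 6 classes by Ldhc UMIs, for the sums of the broad, graded and late genes (left) and for single genes (right). The broad sum stays between 2550.4 and 2915.3, while the late sum climbs from 49.0 to 1768.9.

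The groups were formed from the levels of these same cells at both ends of the Ldhc count, so a flat broad sum and a rising late sum are given as a description. The 23 broad genes together held 2613.4 CPM in cells with 0 Ldhc UMIs, 2632.2 with 1, 2827.3 with 2 to 4, 2621.3 with 5 to 19, 2915.3 with 20 to 99 and 2550.4 with 100 or more. The 6 graded genes rose from 264.3 at 0 and 262.8 at 1 to 433.7 at 5 to 19 and 1465.3 at 100 or more. The late genes were at 58.0 in cells with 1 Ldhc UMI, against 49.0 at 0, and reached 306.9 at 5 to 19 UMIs.

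Within the broad group single genes still moved. Tex11 stood at 111.4 CPM at 5 to 19 Ldhc UMIs, 75.7 at 20 to 99 and 32.5 at 100 or more, and Tex12 at 114.9, 80.6 and 44.3. Smc1b stayed between 399.6 and 443.0 across the 6 classes. The bins pool cells of all libraries, and the last one holds 32 cells.

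After thinning, a cell held a mean of 4.35 of the 34 genes in the Ldhc-0 class (705 of 710 cells had at least 1), 4.42 with 1 to 4 Ldhc UMIs and 5.82 in the Ldhc-rich class. The mean number of broad genes per cell was 3.80, 3.81 and 3.73. At least 1 late gene was seen in 57 of 710 Ldhc-0 cells (8.03%), 43 of 300 middle cells (14.3%) and 106 of 157 Ldhc-rich cells (67.5%), and by library the Ldhc-rich share was 52.9%, 64.3% and 71.8% in Plzf +/+ and 73.2% and 75.0% in Plzf lu/lu. The Ldhc-0 share was 9.39%, 9.29% and 9.79% against 3.59% and 6.67%.

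To test the difference between the classes over libraries, UMIs were summed per library and class and compared by the quasi-likelihood test of edgeR, with library as a block and Benjamini-Hochberg adjustment over all genes. Plzf lu/lu replicate 2, with 4 Ldhc-rich cells, was left out. Of 28 members that passed the filter on low counts, 15 were higher and 3 lower in Ldhc-rich cells at an adjusted p under 0.05, which is 53.6% and 10.7%. Among all 10460 genes tested, 28.8% were called higher and 30.1% lower. The median log2 difference was 0.57 for the 28 members and -0.21 for all genes. Since filtering kept members through the class where they are high, these counts describe the tested members only. Rad21l, Msh5, Mei1, Meiob, Spata22 and Prdm9 had too few UMIs to be tested in this fit. Meiob was called higher with DESeq2 (2.40; DESeq2 adjusted p = 0.000805) and with no filter on low counts (2.17; edgeR adjusted p = 2.32e-06). It was also called higher without Plzf +/+ replicate 1 (2.53; edgeR adjusted p = 2.15e-06).

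**Figure D3:**
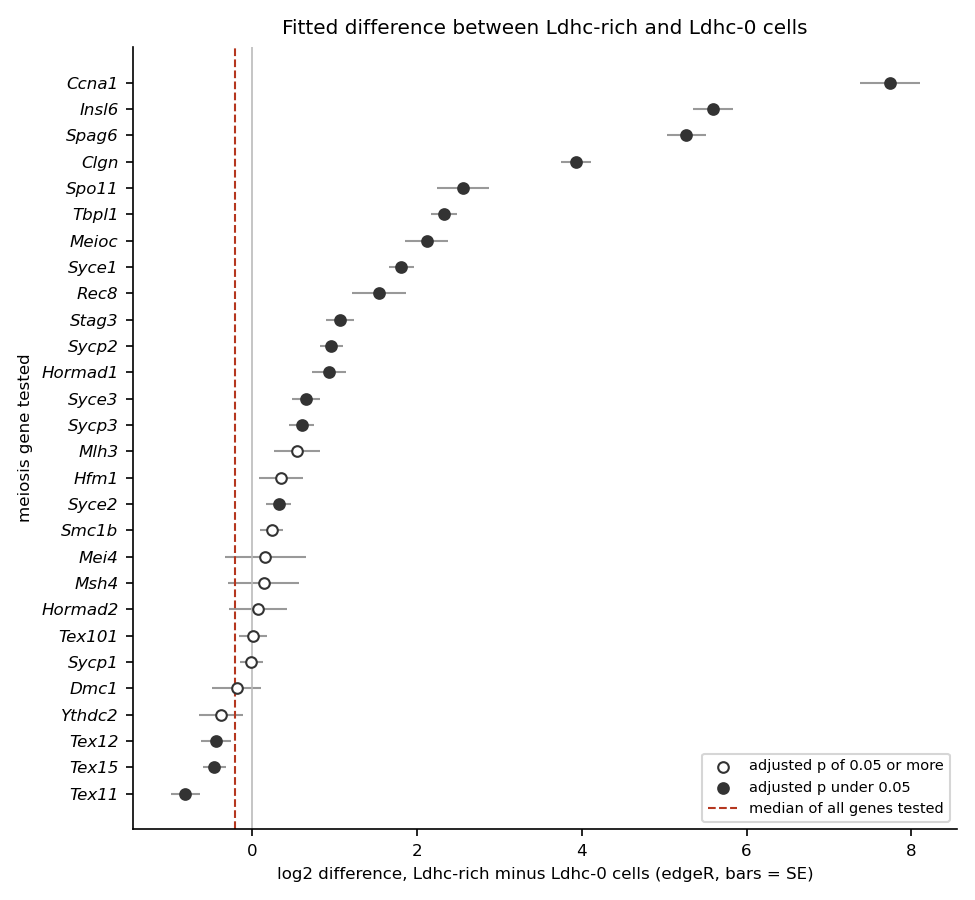
Fitted log2 difference between Ldhc-rich and Ldhc-0 cells for the 28 meiosis genes tested, with standard errors, filled circles for an adjusted p under 0.05 and a dashed line at the median of all genes tested, -0.21. Ccna1 lies farthest to the right at 7.74 and Tex11 farthest to the left at -0.81.

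The largest rises were those of the later genes. Ccna1 was higher by 7.74 on the log2 scale (SE 0.36; edgeR adjusted p = 1.36e-42), a size that rests on 3 UMIs in Ldhc-0 cells. Insl6 followed at 5.59, Spag6 at 5.27 and Clgn at 3.93, with edgeR adjusted p from 3.01e-46 to 8.63e-33. Spo11 rose by 2.56, Tbpl1 by 2.33, Meioc by 2.12, Syce1 by 1.81 and Rec8 by 1.54.

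Other genes of the axis and the synaptonemal complex were called at smaller sizes. Stag3 was higher by 1.07 (SE 0.17; edgeR adjusted p = 3.36e-08), Sycp2 by 0.96 and Hormad1 by 0.93, followed by Syce3 at 0.65, Sycp3 at 0.60 and Syce2 at 0.32. Tex11 was lower by 0.81 on the log2 scale (edgeR adjusted p = 6.97e-05), and Tex15 and Tex12 had differences of -0.46 and -0.44 (edgeR adjusted p = 0.00416 and 0.0306). Of 16 alternatives, Syce2 was called in 8, with differences from -0.37 to 0.58, Tex15 in 7 and Tex12 in 3. Tex12 lost its call whichever of the 4 libraries was left out, at -0.38 to -0.26, and Tex15 lost it without each Plzf +/+ replicate, at -0.22, -0.34 and -0.42. For Sycp1 the difference was -0.01 (SE 0.14) and for Smc1b 0.24 (SE 0.14), neither past the threshold, nor was Hormad2 (0.07, SE 0.35). Among the alternatives, however, Smc1b was called higher in 8 of 16, while Sycp1 was called in 0 of 16. Mlh3 (0.54, SE 0.28), not called here, was called higher in 5 of 15.

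The smaller differences depended on the tool and on which cells were kept. DESeq2 changes the scaling, the model and the number of genes tested (24946) together. With it the median of the same 10460 genes moved by 0.11 on the log2 scale. Of all calls, 79.8% were higher in place of 48.9%. Of the 3 lower members Tex11 kept its call (DESeq2 adjusted p = 0.0331) and Tex15 and Tex12 lost theirs (0.185 and 0.422). Syce2, called higher by edgeR, also lost its call (0.44; DESeq2 adjusted p = 0.0611). The difference of Tex11 was smaller and not called without cells carrying Sertoli markers (-0.40; edgeR adjusted p = 0.102), without cells carrying spermatid transcripts (-0.30; 0.425) and after thinning (-0.28; 0.569). Sycp3 stood at 0.17 without cells carrying Sertoli markers (edgeR adjusted p = 0.392). Without cells that carry spermatid transcripts, which number 94 among the Ldhc-rich and 12 among the Ldhc-0 cells of the 5 libraries, 9 of 24 members (37.5%) were higher and none lower, against 18.7% and 4.86% of 8390 genes. The 9 were Ccna1 (7.71), Insl6 (5.88), Spag6 (5.23), Clgn (3.91), Tbpl1 (2.56), Syce1 (1.83), Meioc (1.79), Stag3 (1.08) and Sycp2 (0.96), while Syce2 and Syce3 stood at -0.35 and -0.08 (edgeR adjusted p = 0.23 and 0.872).

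A further list of 33 meiosis genes that are not among the 34 was read in the same fit, and 32 of them have a row. Of 29 tested, 10 were higher and 8 lower in Ldhc-rich cells, shares near the 28.8% and 30.1% of all genes. The 6 with the largest differences among those called all rose: Hspa2 (4.98), a chaperone of spermatocytes, Spdya (4.54), an activator of CDK2 at telomeres, Mybl1 (3.49), the transcription factor A-MYB of pachytene, Cntd1 (3.30), a crossover factor, Ccdc155 (3.25), which tethers telomeres to the nuclear envelope, and Terb1 (2.24), a meiotic telomere protein. Hspa2 is also on the list of late germ cell markers.

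Within Ldhc-0 cells the members were next compared between the 331 cells with Gfra1 and neither Kit nor Stra8 and the 94 cells with Kit or Stra8 and no Gfra1. Kit and Stra8 mark spermatogonia that respond to retinoic acid. Of 16 members tested, 3 were higher in the Kit or Stra8 cells and none was called lower by edgeR at an adjusted p under 0.05 (1 member was lower at an unadjusted p under 0.05), or 18.8% against 3.70% of 5966 genes called higher. Plzf lu/lu replicate 2, with 2 Kit or Stra8 cells, was left out. The median log2 difference was 0.17 for these members and -0.00 for all genes.

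Sycp3 stood at 139.0, 161.0 and 180.4 CPM in the Gfra1 cells of the Plzf +/+ libraries and 182.4 in those of Plzf lu/lu replicate 1, against 291.0, 292.3, 244.1 and 415.1 in the Kit or Stra8 cells. Each Kit or Stra8 value lay above each Gfra1 value, and the fitted difference was 0.99 (SE 0.17; edgeR adjusted p = 9.63e-05). Syce2 went from 214.0, 203.9, 171.3 and 179.9 to 267.2, 514.0, 335.7 and 343.6, with a difference of 0.89 (SE 0.17; edgeR adjusted p = 4.98e-04).

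Tex15 went from 362.8, 343.4, 331.2 and 334.9 to 467.6, 473.7, 488.3 and 400.8 (0.43, SE 0.13; edgeR adjusted p = 0.0426). It was higher in 4 of 4 libraries, but its call was lost in 7 of the 9 alternatives tried, DESeq2 among them, while those of Sycp3 and Syce2 were lost only after thinning. Sycp1 (0.24, SE 0.15) and Smc1b (0.15, SE 0.13) did not pass the threshold. Clgn stood at 41.8 CPM in Gfra1 cells and 31.1 in Kit or Stra8 cells (-0.13, SE 0.39; edgeR adjusted p = 0.903). Ccna1 had 3 UMIs in 2155250 and 0 in 610534, too few to compare.

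**Figure D4:**
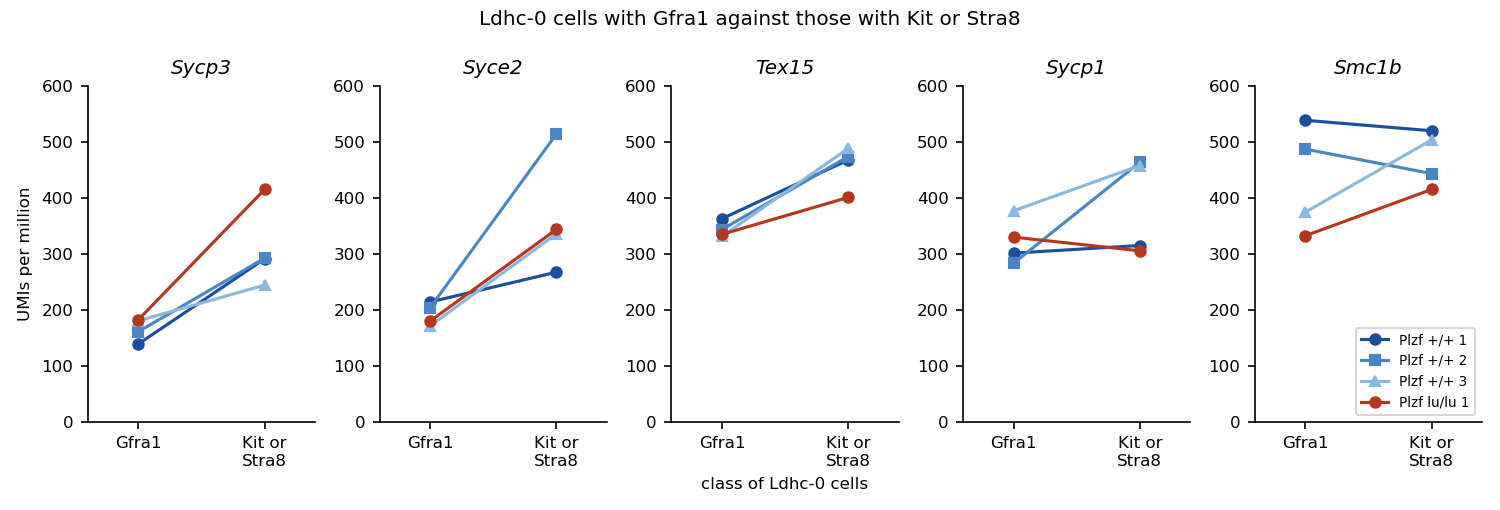
Level in CPM of 5 synaptonemal complex, repair and cohesin genes in Ldhc-0 cells with Gfra1 and in those with Kit or Stra8, with 1 line per library. Sycp3, Syce2 and Tex15 are higher in the Kit or Stra8 cells of 4 of 4 libraries, while lines of Sycp1 and Smc1b run both ways.

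Between the genotypes no member was called when all cells of a library were summed. edgeR called 0 of 32 members tested (3 at an unadjusted p under 0.05), against 0.816% of 13728 genes in either direction, and DESeq2 also called 0. The median log2 difference was 0.01 for the members and 0.00 for all genes. The smallest p-values were those of Syce3 (0.63, SE 0.18; edgeR adjusted p = 0.176), Mlh3 (-1.02, SE 0.30; 0.18) and Sycp3 (0.42, SE 0.14; 0.217). Within plate 4, which holds both genotypes, these differences were 0.76, -1.74 and 0.48, the second on 3 UMIs of Mlh3 in Plzf lu/lu replicate 2. Sertoli markers also separated the genotypes, at 611.9, 557.7 and 533.2 CPM in Plzf +/+ against 1387.7 and 907.6 in Plzf lu/lu, and 5.80% of Plzf +/+ cells and 17.9% of Plzf lu/lu cells held at least 4 of them. Without those cells edgeR called 2 of 32 members higher in Plzf lu/lu, Syce3 (0.67, adjusted p = 0.0346) and Sycp3 (0.62, adjusted p = 0.0372), against 2.51% of all genes.

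The libraries also differ in their share of Ldhc-rich cells. Ccna1 stood at 11.3, 75.0 and 55.9 CPM in all Plzf +/+ cells and at 23.4 and 31.4 in all Plzf lu/lu cells, while 5.36%, 18.8% and 14.4% and then 13.1% and 10.5% of the cells were Ldhc-rich. In such sums, fewer cells of a class and less RNA per cell cannot be told apart. Without Plzf +/+ replicate 1, the library with the lowest share of Ldhc-rich cells, 4 of 32 members (12.5%) were called lower in Plzf lu/lu by edgeR, Ccna1 (-1.37), Spag6 (-1.25), Clgn (-1.09) and Insl6 (-0.79), against 4.83% of 13631 genes. None was called higher in that fit (5.35% of all genes).

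Among Ldhc-0 cells, edgeR called 2 of 25 members higher and 2 lower in Plzf lu/lu, 8.00% in each direction against 7.14% and 6.37% of 10179 genes. The shares are near those of all genes. The median log2 difference was 0.05 for the members and -0.01 for all genes. Both Plzf lu/lu libraries lay above the 3 Plzf +/+ libraries for 6 of the 25 members (24.0%) and below them for 5 (20.0%), against 17.2% and 24.9% of all genes tested.

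The members called higher were Sycp3 and Syce3, while the other 5 synaptonemal complex genes, with differences from -0.21 (Sycp2) to 0.23 (Tex12), were not called. Sycp3 stood at 188.8, 181.4 and 164.0 CPM in Plzf +/+ and 235.6 and 353.6 in Plzf lu/lu (0.62, SE 0.16; edgeR adjusted p = 0.00379). Syce3 stood at 90.7, 100.7 and 73.5 against 140.6 and 173.0 (0.78, SE 0.18; edgeR adjusted p = 0.00119). Neither overlapped between the genotypes.

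The members called lower were Clgn and Ythdc2. Clgn stood at 42.3, 55.6 and 43.0 CPM in Plzf +/+ and 12.0 and 15 in Plzf lu/lu, on 15 and 2 UMIs (-1.85, SE 0.36; edgeR adjusted p = 1.37e-04). Ythdc2 stood at 53.3, 65.0 and 47.5 against 28.0 and 15, on 35 and 2 UMIs (-1.0, SE 0.29; edgeR adjusted p = 0.0123). Neither overlapped.

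Within plate 4, the ratio of Plzf lu/lu to Plzf +/+ was 2.16 for Sycp3 (1.52 to 3.01), 2.35 for Syce3 (1.40 to 3.84), 0.350 for Clgn (0.0409 to 1.35) and 0.317 for Ythdc2 (0.0371 to 1.22). The 4 directions were those of the whole fit, and the intervals of Clgn and Ythdc2 include 1. Without Plzf lu/lu replicate 1, which leaves 22 cells of 1 Plzf lu/lu library that is assumed to vary like the Plzf +/+ libraries, Sycp3 kept its call (1.01), and Syce3 (0.99), Clgn (-1.59) and Ythdc2 (-1.83) lost theirs at differences of the same sign. DESeq2 called none of the 4 (adjusted p = 0.0625 for Clgn, 0.139 for Sycp3, 0.158 for Syce3 and 0.328 for Ythdc2).

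The Ldhc-0 cells of the genotypes also differed in their markers. The 14 markers of undifferentiated spermatogonia summed to 1071.6, 1254.0 and 1243.4 CPM in Plzf +/+ and 847.4 and 722.2 in Plzf lu/lu, and cells with Gfra1 and neither Kit nor Stra8 made up 50.6%, 48.7% and 45.4% of them against 25.9% and 31.8%. The 4 germ cell markers summed to 2093.6, 2233.3 and 2021.7 CPM against 2394.3 and 2542.7, and the 4 late germ cell markers other than Ldhc to 41.7, 54.5 and 49.8 against 64.7 and 75.2. The part of these differences in the calls was not tested. Among those Gfra1 cells alone, Sycp3 stood at 139.0, 161.0 and 180.4 against 182.4 and 313.8, Syce3 at 78.7, 88.0 and 73.1 against 159.9 and 130.7, Clgn at 45.5, 53.7 and 50.2 against 12.5 and 26.1, and Ythdc2 at 51.7, 77.3 and 45.7 against 25.0 and 0. These cells are a subset of those on which the 4 genes were called, with 7 of them in Plzf lu/lu replicate 2, and no test was made of them.

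**Figure D5:**
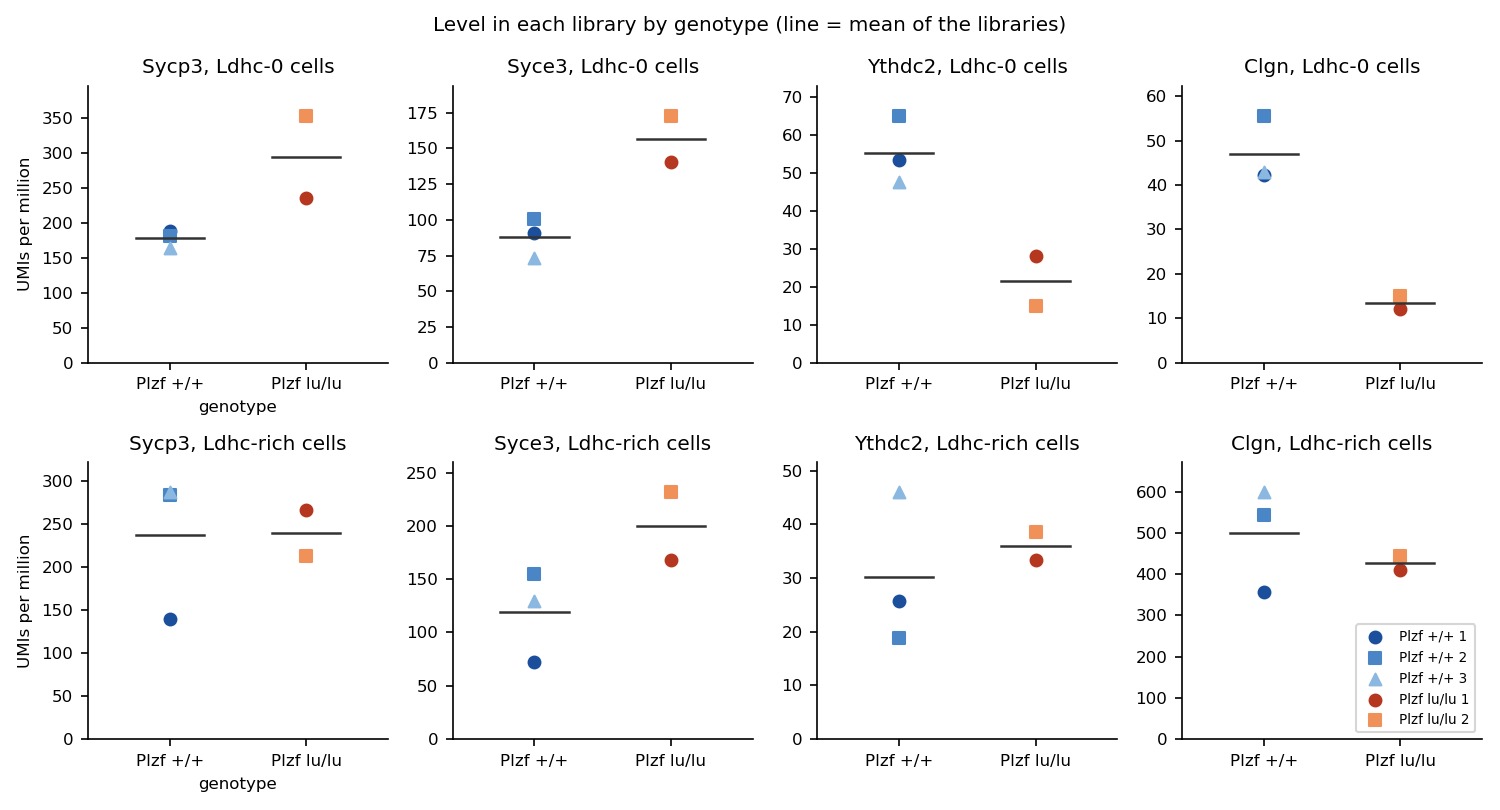
Level in CPM of the 4 meiosis genes called between the genotypes in Ldhc-0 cells, for the Ldhc-0 cells (top) and Ldhc-rich cells (bottom) of each library, with the mean of the libraries as a line. In Ldhc-0 cells, on which the 4 were called, the genotypes do not overlap for any of them, as for 11 of the 25 members tested and 42.0% of all genes tested, while in Ldhc-rich cells only Syce3 keeps them apart.

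Whether the Ldhc classes differed by another amount in Plzf lu/lu was tested as an interaction, in which Plzf lu/lu had replicate 1 alone. The spread in this fit came from the Plzf +/+ libraries, and Plzf lu/lu is assumed to vary like them. edgeR called 0 of 28 members (2 at an unadjusted p under 0.05) and 0.163% of 10460 genes, and DESeq2 called 0 members. The smallest p-values were those of Clgn (1.55, SE 0.44; edgeR adjusted p = 0.172), Spo11 (1.60, SE 0.72; 0.529) and Hormad1 (-0.72, SE 0.42; 0.701). The log2 ratio of Clgn in Ldhc-rich to Ldhc-0 cells was 3.08, 3.29 and 3.80 in Plzf +/+, against 5.10 and 4.88 in Plzf lu/lu.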

How the data were processed

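Single cells of 4 plates were sequenced at the 3′ end, and the deposited tables hold UMI counts per gene and cell, made by the authors and not normalized. Per the submitters' processing notes, bcl2fastq 2.18.0.12, Picard 2.9.3, STAR 2.5.4a and GRCm38 were used. All deposited cells were kept, no doublets were removed here, and how the authors treated doublets is not given in the sources used here. On plate 4 a cell has the genotype of the table that lists it, and 5 Plzf +/+ cells lie in wells annotated as Plzf lu/lu.

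Counts were summed per library and class. Sums were tested with edgeR 4.0.16 (R 4.3.3) by glmQLFit with robust estimation and glmQLFTest, after filterByExpr and TMM scaling, with Benjamini-Hochberg adjustment over all genes and calls at an adjusted p under 0.05. Library was a block in the comparisons within libraries, and sums of fewer than 5 cells were left out. DESeq2 1.42.0 was an alternative, as were no filter, thinning to 2000 UMIs, other Ldhc limits, other sets of cells and leaving out each library. The fits were tested on simulated data. Library depth ran from 254514 to 2608702 UMIs and cell depth from 612 to 95069 UMIs. Levels, intervals and sequence matches were computed in Python 3.11.15 with numpy 2.4.6, pandas 2.3.3 and scipy 1.17.1, and plots were drawn with matplotlib 3.10.9.

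Members of at least 20 UMIs were named for the Ldhc classes. Elsewhere the members called were named, or the 3 of smallest p where fewer than 3 were called, and 6 genes of the further meiosis list. The members and lists were chosen with earlier results of these data known.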

Additional observations from a re-analysis of the deposited data

Results flagged for a closer look

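The log2 ratio of Ythdc2 in Ldhc-rich to Ldhc-0 cells was below 0 in the 3 Plzf +/+ libraries (-1.05, -1.79 and -0.05) and above 0 in both Plzf lu/lu libraries (0.25 and 1.36), the last on 2 UMIs in each class. For Tex101 it was -1.15, -0.02 and -0.29 against 0.03 and 0.51. The difference in sign itself was not tested. The edgeR interaction of genotype and Ldhc class, in which Plzf lu/lu had replicate 1 alone, was 1.0 for Ythdc2 (SE 0.59; adjusted p = 0.71) and 0.19 for Tex101 (SE 0.34; adjusted p = 0.934).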

How the results depend on the processing

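Between the Ldhc classes 18 of 28 members were called in either direction (64.3%), a share near the 59.0% of all genes. When each library was left out, 15 to 18 were called (53.6% to 66.7%, against 41.1% to 55.4% of all genes). Of the 18, 15 to 17 kept their call, with Tex12, Tex15 and Syce2 the ones lost. Without cells carrying Sertoli markers 16 of 26 were called (61.5%, against 41.2% of all genes), of which 13 were among the 18: Hormad1, Syce2, Sycp3, Tex11 and Tex12 lost their call, and Smc1b, Tex101 and Ythdc2 gained one. Thinning to 2000 UMIs left 8 of 18 tested (44.4%, against 29.1% of all genes), leaving out cells with spermatid transcripts 9 of 24 (37.5% against 23.6%), and leaving out cells with Sertoli markers or spermatid transcripts, an alternative chosen after seeing the data, 10 of 24 (41.7% against 22.0%). Without the spermatid-transcript cells, Syce2 stood at -0.35 and Syce3 at -0.08, and without both kinds of cell at -0.37 and -0.16. Tex101 stood at -0.54 without Sertoli-marker cells and -0.82 without both kinds. Between stages, 2 to 3 members were called when each library was left out (11.8% to 16.7%, against 3.96% to 6.53% of all genes). After thinning, 0 of 7 tested were called between stages, against 4.70% of all genes. Between genotypes over all cells, 1 member of 24 (Syce3) was called after thinning (4.55% of all genes), 2 of 32 (Syce3 and Sycp3) without Sertoli-marker cells (5.01% of all genes) and 0 to 4 when each library was left out, the 4 without Plzf +/+ replicate 1 (10.2% of all genes). Among Ldhc-0 cells DESeq2 called 0 members (0.883% of all genes), 2 of 17 (Syce3 and Clgn) were called after thinning (7.98% of all genes), and 1 to 4 when each library was left out, the 1 without Plzf lu/lu replicate 1 (1.83% of all genes). The interaction was fitted in 7 alternatives, none of them with a library left out, and 1 Plzf lu/lu library entered it. Where no value above shows a cause, the cause was not tested. No paired analysis was possible because libraries of the same replicate number come from different plates in the genotypes. Plzf +/+ replicate 3 and Plzf lu/lu replicate 2 do share plate 4, a single pair, whose values are given with the genotype results. Without the library block, 17 of 28 members were called between the Ldhc classes (60.7%, against 54.5% of all genes). Thinned or scarce genes (Spata22, Prdm9, Mei1, Msh5, Rad21l and Meiob) are limited by depth.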
